A study of Homo sapiens with 8 samples.

Results

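The 38 genes described here make, desaturate, move and sense sterols and fatty acids. They were taken by symbol from the 57992 genes of the Molm13 count table, and by the same gene identifiers from the 58174 genes of the THP1 table. They comprise 5 regulators of the SREBP pathway, 18 enzymes of the mevalonate and sterol route, 1 sterol carrier (STARD4), 9 enzymes of fatty acid synthesis, and 5 genes of cholesterol efflux, oxysterol and lysosomal handling. The question addressed was how their transcripts changed when the arginine methyltransferase PRMT9 was knocked down in acute myeloid leukemia (AML) cells.

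Poly(A) RNA was sequenced from Molm13 and THP1, human AML cell lines with monocytic features. In each line, 2 libraries carried a control hairpin (shCtrl, labelled WT) and 2 carried a hairpin against PRMT9 (shPRMT9, labelled PRMT9 knockdown), giving 8 libraries in 4 groups. The label Dox induction is carried by every one of the 8 libraries, controls included, so no library shows the cells without the inducer. Each line is a cell line rather than a set of donors, and the labels do not say whether the libraries of a group came from separate cultures, so the p-values measure only the spread between these libraries, which may be technical. The numbers 1 and 2 were read as replicates, and a different hairpin behind each number cannot be told apart from a replicate.

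Total counts ranged from 18720950 to 27356870 per library. PRMT9 itself had 332 and 289 counts in the control Molm13 libraries against 41 and 56 after knockdown, and 317 and 352 against 60 and 68 in THP1, so the groups did not overlap in either line (log2 fold change -2.68 ± 0.14 SE in Molm13 and -2.29 ± 0.13 SE in THP1). The 8 myeloid markers were all counted in every library, from 45 counts of CD68 to 21516 of LYZ in Molm13 and from 104 of MPO to 79446 of LYZ in THP1. Of 6 B cell markers, PAX5 had 741 to 866 counts in Molm13, and 64 and 86 in control against 298 and 276 in knockdown THP1 libraries (2.03 ± 0.13, edgeR adjusted p = 7.37e-13), and the other 5 had at most 33. The part of PAX5 in the changes of the members was not tested. T cell markers summed to at most 0.427 CPM (counts scaled to a common library size) in any library. The letters OCI, used for other blood cancer lines, also stand in the THP1 library names. HOXB genes, 1 marker set of such lines, summed to between 13.5 and 15.6 CPM there.

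Sterol regulatory element-binding proteins, encoded by SREBF1 and SREBF2, are transcription factors held in the endoplasmic reticulum membrane. The escort protein SCAP carries them to the Golgi for cleavage when sterols are scarce, whereas the INSIG proteins retain SCAP when sterols are plentiful. The released factors switch on most genes of cholesterol and unsaturated fatty acid synthesis, with SREBF2 known mainly for the sterol arm and SREBF1 for the fatty acid arm. Liver X receptors (LXR) sense oxysterols and act on the other side of the balance through efflux pumps such as ABCA1 and the ubiquitin ligase MYLIP.

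The 2 lines differed in the direction in which many of these genes moved after knockdown. In THP1 14 of the 18 sterol enzymes fell by the adjusted p, 5 of them by more than 1.5-fold, as did SREBF1, INSIG1, SCD and both fatty acid desaturases FADS1 and FADS2. In Molm13 10 of the 18 sterol enzymes rose and 4 fell by the adjusted p, with 3 rising by more than 1.5-fold. By the same adjusted p, 18.6% of all genes fell in THP1, and 33.4% rose and 33.5% fell in Molm13. With the fold limit and a minimum level, both defined below, 2.39% of all genes fell in THP1 and 11.4% rose in Molm13. The oxysterol-responsive genes ABCA1 and MYLIP also rose in Molm13, and the fatty acid enzymes ACACA, ELOVL6 and FADS1 fell there. With the fold limit, FADS1 was the member down in both lines, and TM7SF2 and MYLIP were up in Molm13 and down in THP1.

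A gene was called differentially expressed (DEG) when edgeR's quasi-likelihood test gave a Benjamini-Hochberg adjusted p under 0.05 over all genes tested in that line, the change exceeded 1.5-fold, and at least 1 library reached an RPKM (CPM per kilobase of exon) above 1. In Molm13, 36 of the 38 genes had enough counts to be tested, and 7 were upregulated and 3 downregulated DEGs. These are 19.4% and 8.33% of the tested members, against 11.4% and 11.3% of all 16446 genes tested. In THP1, 35 were tested, and 1 was an upregulated and 11 were downregulated DEGs. These are 2.86% and 31.4%, against 3.83% and 2.39% of all 16294 genes tested. The share of downregulated DEGs in THP1 was the one that stood farthest from its background.

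By the adjusted p alone, 19 members rose and 13 fell in Molm13, or 52.8% and 36.1% of those tested, where 33.4% and 33.5% of all genes did. In THP1, 2 rose and 24 fell, or 5.71% and 68.6%, against 19.0% and 18.6% of all genes. The median log2 fold change of the tested members was 0.13 in Molm13 and -0.35 in THP1, and that of all tested genes was 0.00047 and -0.00063. In the cross of these calls, 14 members rose in Molm13 and fell in THP1, 8 fell in both (SREBF1, ACAT2, IDI1, SQLE, ACACA, FASN, SCD and FADS1), and 2 rose in both (ACSS2 and NPC1).

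**Figure D1:**
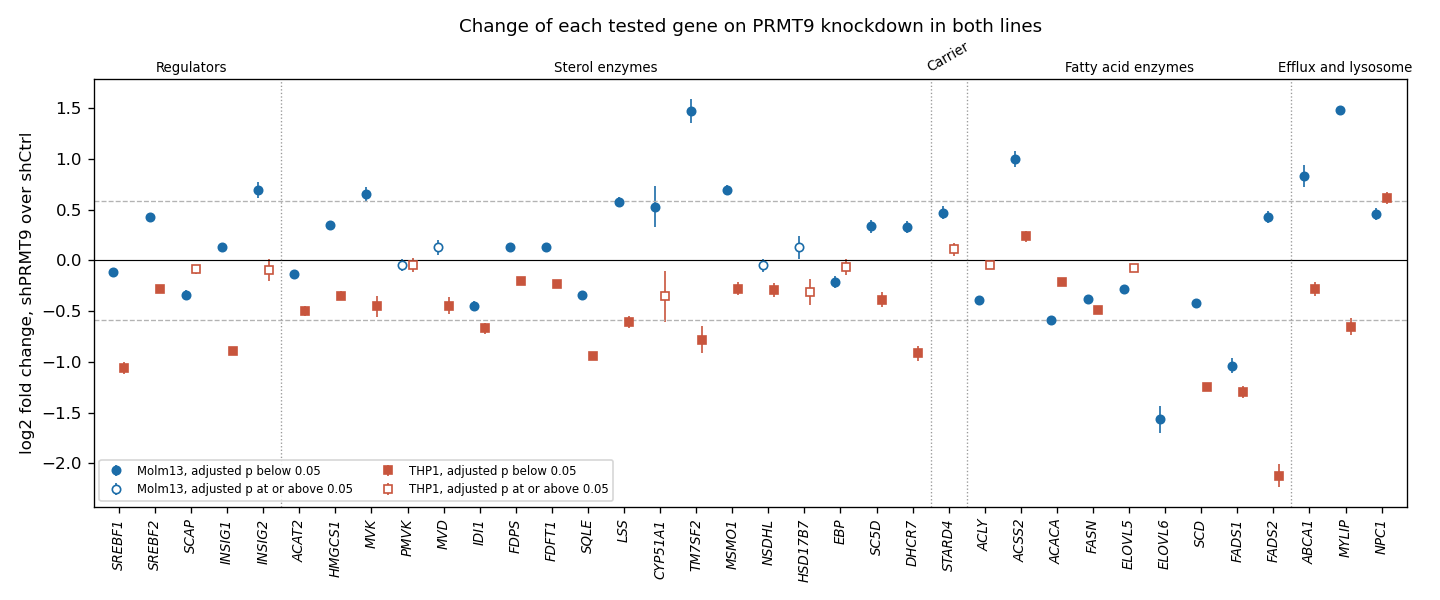
Log2 fold change (shPRMT9 over shCtrl) of the 36 members tested in the fit of both lines together, grouped by role, with points for Molm13 (circles) and THP1 (squares), standard errors as bars, open symbols for an adjusted p at or above 0.05, and dashed lines at a change of 1.5-fold. Points for the 18 sterol enzymes lie below 0 in THP1, whereas 12 of the 18 lie above 0 in Molm13; ELOVL6 has no THP1 point because it had too few counts there.

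Summed over each role, the 2 arms of the pathway also moved differently. The 18 sterol enzymes together held 1048 and 1053 CPM in the control Molm13 libraries (lowest and highest) and 1145 and 1153 CPM after knockdown. In THP1 they held 1008 and 1026 CPM against 754 and 766 CPM. The summed level of these 18 enzymes was thus higher after knockdown in Molm13 and lower in THP1, although 4 of the 18 fell in Molm13 by edgeR's adjusted p. The sums leave out LBR, a sterol reductase that is not among the 18. Its mean went from 399 to 225 CPM in Molm13, a larger fall than the rise of the Molm13 sum. In THP1 its mean went from 326 to 319 CPM. The 9 fatty acid enzymes fell from 2064 and 2085 CPM to 1588 and 1611 CPM in Molm13, and from 2054 and 2120 CPM to 1580 and 1611 CPM in THP1, sums in which SCD and FASN weigh heavily. These sums are descriptions and carry no test. In bulk RNA, fewer cells expressing a gene and less RNA per cell cannot be told apart.

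**Figure D2:**
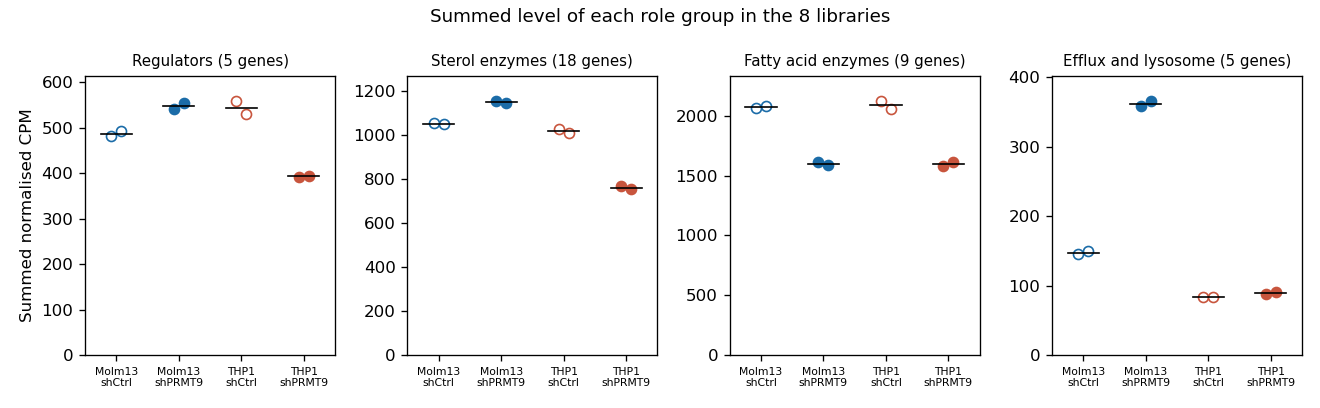
Summed TMM-normalised CPM of each role group in the 8 libraries (points, 1 per library; open for shCtrl, filled for shPRMT9; bars are the mean of 2), with each axis starting at 0. The sterol enzymes sit between 1145 and 1153 CPM in the knockdown Molm13 libraries and between 754 and 766 CPM in the knockdown THP1 libraries, while the fatty acid enzymes sit between 1580 and 1611 CPM in the knockdown libraries of both lines.

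The sequence before the members' start sites was read from the RefSeq promoter table (GRCh38.p14), whose windows span 250 bases before and 50 bases after each start. At least 1 window was found for 33 members, and 44 windows in all. FASN, ABCG1, FDFT1, ACAT2 and SQLE had no entry. The motifs searched, on both strands and in any overlap, were the sterol regulatory element TCACNCCAC, where N is any base, the CCAAT box (CCAAT), bound by a factor that works beside SREBPs, and the LXR element, 2 AGGTCA repeats 4 bases apart. The sterol regulatory element in this strict spelling was in 1 of the 44 windows, that of SREBF2, and in 1.13% of all 35116 promoters. A CCAAT box was in 27 of the 44 windows (61.4%), which belong to 23 members, and in 34.6% of all promoters. The LXR element matched no member window and 0.0199% of all promoters, which says only that these letters are not in these windows.

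The 200 bases before the start are shown for 5 members, with matches to the sterol regulatory element or the CCAAT box (CCAAT, or ATTGG where it lies on the other strand) in capitals. SREBF2 (chr22:41832905-41833104, plus strand) is shown as the only member window with the strict element, which starts 133 bases before the start site, with a CCAAT box beginning 106 bases before it. INSIG1 (chr7:155297678-155297877, plus strand) and SCD (chr10:100347033-100347232, plus strand) are shown as SREBP targets of the sterol and fatty acid arms that fell in THP1. TM7SF2 (chr11:65111672-65111871, plus strand) and MYLIP (chr6:16128886-16129085, plus strand) are shown as the members that were DEGs in opposite directions in the 2 lines. All 5 stretches hold a CCAAT box, but they were chosen with their values known. A link between the box and a change in either line was not tested.
SREBF2: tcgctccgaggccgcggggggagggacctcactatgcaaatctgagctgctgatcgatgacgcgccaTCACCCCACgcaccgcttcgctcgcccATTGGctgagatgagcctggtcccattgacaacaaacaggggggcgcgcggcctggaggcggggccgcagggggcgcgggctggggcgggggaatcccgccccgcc
INSIG1: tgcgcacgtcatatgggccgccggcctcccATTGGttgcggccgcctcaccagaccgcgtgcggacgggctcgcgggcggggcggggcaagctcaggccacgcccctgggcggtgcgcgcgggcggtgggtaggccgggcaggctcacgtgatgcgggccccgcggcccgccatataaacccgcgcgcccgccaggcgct
SCD: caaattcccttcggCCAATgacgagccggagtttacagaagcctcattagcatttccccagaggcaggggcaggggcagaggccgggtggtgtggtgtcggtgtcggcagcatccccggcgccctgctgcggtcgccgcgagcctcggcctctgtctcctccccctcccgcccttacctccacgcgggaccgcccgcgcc
TM7SF2: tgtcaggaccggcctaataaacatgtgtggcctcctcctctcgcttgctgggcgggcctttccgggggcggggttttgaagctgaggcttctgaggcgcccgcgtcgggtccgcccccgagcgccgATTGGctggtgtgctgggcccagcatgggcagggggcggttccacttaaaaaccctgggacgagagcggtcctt
MYLIP: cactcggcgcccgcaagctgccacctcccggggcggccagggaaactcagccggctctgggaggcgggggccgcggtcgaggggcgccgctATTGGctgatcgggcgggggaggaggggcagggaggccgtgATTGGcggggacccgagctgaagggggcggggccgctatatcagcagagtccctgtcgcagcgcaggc

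Among the regulators, SREBF1 (chromosome 17, minus strand) was a DEG in THP1 and changed little in Molm13. It had 1677 and 1730 counts in the control THP1 libraries and 746 and 782 after knockdown, a fall to 0.479 of control (log2 fold change -1.06 ± 0.06 SE, edgeR adjusted p = 6.27e-15). In Molm13 it had 1467 and 1482 counts against 1274 and 1440, a change of -0.12 ± 0.04 (edgeR adjusted p = 0.017). The Molm13 call was lost without control replicate 2 (-0.08), knockdown replicate 1 (-0.11) or knockdown replicate 2 (-0.11), with upper-quartile scaling (-0.07) and in DESeq2 (-0.12), whereas the THP1 call held in every alternative run. Exons of RAI1 on the opposite strand cover 6.92% of its exonic bases.

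SREBF2, the sterol arm's factor, moved in opposite directions. Its counts were 3357 and 3292 in control and 4142 and 4807 in knockdown Molm13 libraries, a rise to 1.35 times control (0.43 ± 0.03). Its counts were 5681 and 5767 in control and 4484 and 4338 in knockdown THP1 libraries, a fall to 0.822 of control (-0.28 ± 0.04). Neither change reached 1.5-fold, and the groups did not overlap after normalisation in either line. The difference between the lines was -0.70 ± 0.05 on the log2 scale (edgeR interaction term, adjusted p = 4.83e-24).

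SCAP, the escort, had 1434 and 1416 counts in control against 1065 and 1189 in knockdown Molm13 libraries, a fall of 20.9% (-0.34 ± 0.05). In THP1 it had 2598 and 2629 against 2244 and 2363, with overlapping groups after normalisation and no call (-0.09 ± 0.05, edgeR adjusted p = 0.13), though it was called lower in 3 alternatives. SCAP was thus the regulator whose change was higher in THP1 than in Molm13, by 0.26 ± 0.06.

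INSIG1, itself a classical SREBP target, had 4074 and 4300 counts in control THP1 libraries and 2135 and 2084 after knockdown, a fall to 0.538 of control (-0.89 ± 0.04, edgeR adjusted p = 8.51e-17). In Molm13 the counts were 3229 and 3153 against 3185 and 3800, a rise of 9.35% (0.13 ± 0.03). The other retention protein, INSIG2, showed the reverse pattern of calls. It rose in Molm13 from 339 and 281 counts to 458 and 545 (0.69 ± 0.08, edgeR adjusted p = 1.88e-10). In THP1 its groups overlapped, at 260 and 280 against 263 and 212 counts (-0.09 ± 0.11), and the change was not called.

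**Figure D3:**
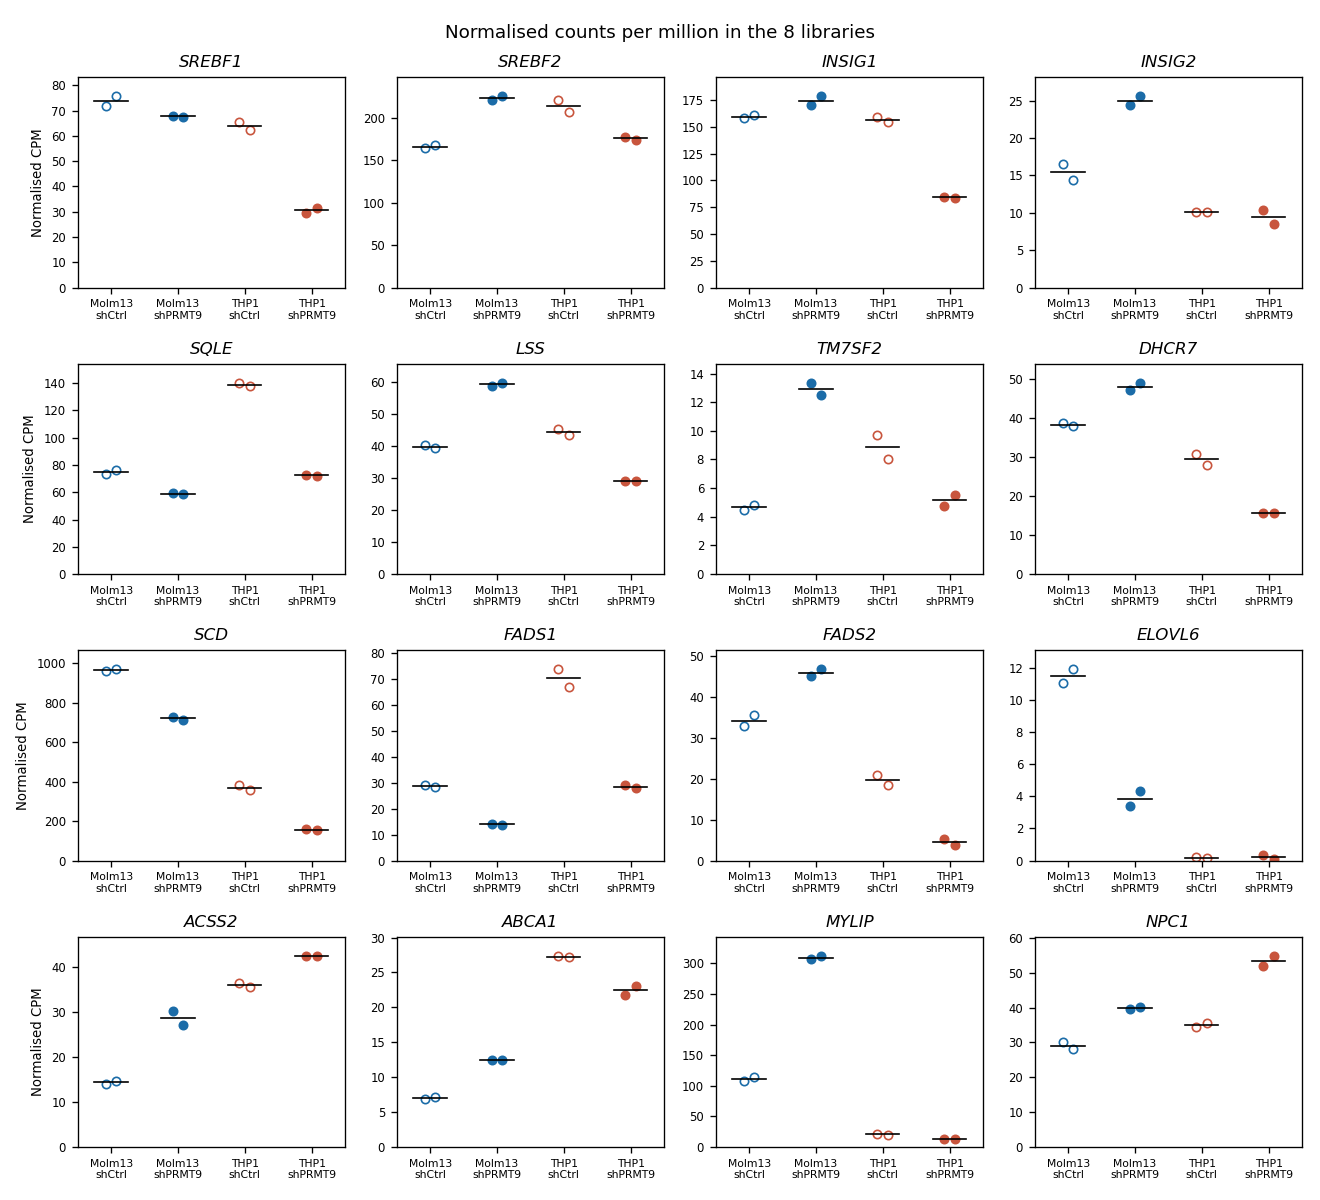
TMM-normalised CPM of 16 members in each of the 8 libraries (points; open for shCtrl, filled for shPRMT9; bars are the mean of 2), each panel starting at 0. SREBF1 and INSIG1 fall in THP1 to 0.479 and 0.538 of control, TM7SF2 and MYLIP rise in Molm13 and fall in THP1, and FADS1 falls in both lines.

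The early steps of the route, from acetyl-CoA to isoprenoid units, fell modestly in THP1. ACAT2, which joins acetyl-CoA units, fell there by 29.3% (-0.50 ± 0.05), HMGCS1, the HMG-CoA synthase, by 21.6% (-0.35 ± 0.04) and MVD, the mevalonate diphosphate decarboxylase, by 26.6% (-0.45 ± 0.08). PMVK, phosphomevalonate kinase, was the early step with the smallest changes, -0.05 ± 0.06 in Molm13 and -0.04 ± 0.07 in THP1, neither called. In Molm13, HMGCS1 rose to 1.27 times control (0.35 ± 0.04), MVD was not called (0.13 ± 0.08, but called higher in 2 alternatives), and ACAT2 was lower by 8.78% (-0.13 ± 0.04), a call lost with upper-quartile scaling, in DESeq2 and without knockdown replicate 1 (-0.10). Of the exonic bases of ACAT2, 52.3% lie under exons of genes on the opposite strand.

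MVK, mevalonate kinase, had 393 and 333 counts in control Molm13 libraries and 531 and 607 after knockdown, a rise to 1.57 times control (0.65 ± 0.07, edgeR adjusted p = 1.84e-10). Without control replicate 2 the rise was 0.57, under the 1.5-fold limit (0.585 on the log2 scale). In THP1 its 355 and 320 counts became 220 and 242, a fall of 27.0% (-0.45 ± 0.11), which passed the 1.5-fold limit only without control replicate 2 (-0.59). MVK thus moved up in 1 line and down in the other, with a difference of -1.09 ± 0.13.

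IDI1, the isomerase that makes the 2 isoprenoid building blocks interconvertible, fell in both lines. In Molm13 it went from 1991 and 1739 counts to 1287 and 1445, a fall of 26.7% (-0.45 ± 0.04). In THP1 it went from 2224 and 2360 to 1469 and 1234, a fall of 37.1% (-0.67 ± 0.06, edgeR adjusted p = 8.31e-11). Without THP1 knockdown replicate 2 the fall was -0.56, under the 1.5-fold limit. The difference between the lines, -0.21 ± 0.07, was no longer called in DESeq2, without Molm13 control replicate 2 (-0.18) or without THP1 knockdown replicate 2 (-0.13).

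FDPS and FDFT1, which make farnesyl diphosphate and squalene, rose by 9.64% and 9.77% in Molm13 (0.13 ± 0.03 and 0.13 ± 0.03) and fell by 12.9% and 15.1% in THP1 (-0.20 ± 0.04 and -0.24 ± 0.03). Their changes were small beside those of the enzymes that follow. SQLE, the squalene epoxidase and a rate-limiting step of the sterol branch, had 3595 and 3832 counts in control THP1 libraries and 1832 and 1793 after knockdown, a fall to 0.521 of control (-0.94 ± 0.04, edgeR adjusted p = 5.74e-17). In Molm13 it fell from 1503 and 1489 counts to 1109 and 1247, or by 21.3% (-0.34 ± 0.05). SQLE and IDI1 were the sterol enzymes that fell by more than 20% in both lines.

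LSS, lanosterol synthase, closes the ring system of all sterols. Its counts rose from 821 and 770 to 1099 and 1271 in Molm13, or 1.49 times control (0.57 ± 0.05), just short of the 1.5-fold limit. It passed that limit with upper-quartile scaling (0.62) and without knockdown replicate 1 (0.60). In THP1 its 1161 and 1210 counts fell to 734 and 723, or 0.656 of control (-0.61 ± 0.06, edgeR adjusted p = 2.38e-09), and to just under the limit without control replicate 1 (-0.58). The difference between the lines was -1.17 ± 0.08.

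TM7SF2, a sterol reductase acting after lanosterol, changed more than any other sterol enzyme in Molm13. Its counts rose from 92 and 94 to 250 and 267, or 2.78 times control (1.47 ± 0.12, edgeR adjusted p = 1.02e-14). In THP1 they fell from 248 and 223 to 119 and 138, or 0.582 of control (-0.78 ± 0.13, edgeR adjusted p = 1.91e-05). The groups did not overlap in either line, and the difference was -2.24 ± 0.18 (edgeR interaction term, adjusted p = 5.11e-20). Its level was low in both lines, 1.36 ± 0.06 RPKM (SD, n = 2) in control Molm13 and 2.60 ± 0.34 RPKM (SD, n = 2) in control THP1, and 0.469% of its exonic bases are shared with VPS51 on the same strand.

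MSMO1, which oxidises the methyl groups of lanosterol intermediates, rose in Molm13 from 869 and 874 counts to 1325 and 1486, or 1.61 times control (0.69 ± 0.05, edgeR adjusted p = 1.6e-16). In THP1 it fell from 997 and 1100 counts to 783 and 835, or by 17.6% (-0.28 ± 0.06). DHCR7, which reduces the immediate precursor to cholesterol, had 792 and 783 counts in control THP1 libraries and 395 and 388 after knockdown, a fall to 0.531 of control (-0.91 ± 0.07, edgeR adjusted p = 7.03e-11). In Molm13 it rose from 795 and 743 counts to 884 and 1047, or by 25.5% (0.33 ± 0.05). The line difference of DHCR7, -1.23 ± 0.10, was the next largest among sterol enzymes after that of TM7SF2.

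None of the remaining late enzymes was a DEG in either line. SC5D, the desaturase before DHCR7, rose by 26.0% in Molm13 (0.33 ± 0.06) and fell by 23.6% in THP1 (-0.39 ± 0.07). NSDHL, a dehydrogenase of the demethylation complex, fell by 18.3% in THP1 (-0.29 ± 0.07) and was not called in Molm13 (-0.05 ± 0.07). Its partner HSD17B7 was called in neither line, at 0.13 ± 0.11 in Molm13 and -0.31 ± 0.13 in THP1, where it was called lower with library size alone (-0.34), with upper-quartile scaling (-0.33) and without knockdown replicate 1 (-0.43). EBP, the sterol isomerase, fell by 13.8% in Molm13 (-0.21 ± 0.06), a call lost in DESeq2 and without knockdown replicate 2 (-0.17), and was not called in THP1 (-0.06 ± 0.08).

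CYP51A1, the lanosterol demethylase, was called higher in Molm13 (0.53 ± 0.20, edgeR adjusted p = 0.018), but the call was lost in DESeq2, without control replicate 2 (0.49) and without knockdown replicate 1 (0.43). It was not called in THP1 (-0.35 ± 0.25). Its level of 0.594 ± 0.025 RPKM (SD, n = 2) in control Molm13 and 0.466 ± 0.085 RPKM (SD, n = 2) in control THP1 is uncertain, since 79.4% of its exonic bases lie in exons of other genes on the same strand, where a read cannot be given to 1 gene. STARD4, a cytosolic sterol carrier and SREBP target, rose in Molm13 by 38.4% (0.47 ± 0.06) and was not called in THP1 (0.11 ± 0.06).

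Counted over the 18 sterol enzymes, 10 rose and 4 fell in Molm13 by the adjusted p, with a median of 0.13, where 33.4% of all genes rose and 33.5% fell. In THP1, 14 fell, where 18.6% of all genes did, and all 18 had a log2 fold change below 0 in the fit reported here, with a median of -0.37. DEGs of this group were MVK, TM7SF2 and MSMO1 (up) in Molm13, and IDI1, SQLE, LSS, TM7SF2 and DHCR7 (down) in THP1. These upregulated DEGs are 16.7% of the group in Molm13, against 11.4% of all genes tested. The downregulated DEGs in THP1 are 27.8%, against 2.39%.

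Among the fatty acid enzymes, SCD, the stearoyl-CoA desaturase that makes monounsaturated fatty acids, had the highest level of the members per kilobase in Molm13, at 180 ± 0.82 RPKM (SD, n = 2) in the controls. It fell from 19697 and 18993 counts to 13678 and 15192, or by 25.3% (-0.42 ± 0.02). In THP1 the control level was 69.0 ± 3.2 RPKM (SD, n = 2), and 9797 and 9950 counts fell to 3996 and 3808, or 0.422 of control (-1.25 ± 0.04, edgeR adjusted p = 5.08e-21). SCD fell in both lines, and further in THP1 by 0.81 ± 0.04 on the log2 scale.

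FADS1 and FADS2 are neighbouring desaturase genes on chromosome 11 that act in turn on polyunsaturated fatty acids. FADS1 fell from 593 and 558 counts to 266 and 295 in Molm13, or 0.488 of control (-1.04 ± 0.08, edgeR adjusted p = 3.27e-16). It fell from 1891 and 1859 counts to 730 and 699 in THP1, or 0.406 of control (-1.30 ± 0.06, edgeR adjusted p = 1.52e-16). FADS1 was the downregulated DEG of both lines, and the difference of -0.25 ± 0.10 between them was lost without filtering of low counts, in DESeq2, without Molm13 knockdown replicate 1 and without THP1 control replicate 1.

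FADS2 split from its neighbour in Molm13. There its counts rose from 674 and 698 to 846 and 998, or by 34.3% (0.43 ± 0.06). In THP1 they fell from 537 and 517 to 132 and 95, or 0.230 of control (-2.12 ± 0.12, edgeR adjusted p = 1.27e-14), the farthest any member moved in either line. The line difference of -2.53 ± 0.13 was also the largest of the 36 members tested (edgeR interaction term, adjusted p = 1.39e-32). Exons of other genes cover 5.57% of the exonic bases of FADS1 and 4.89% of those of FADS2, mostly each other's on the opposite strand.

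ELOVL6, which extends palmitate to stearate, was the member that fell most in Molm13, from 226 and 233 counts to 63 and 92, or 0.338 of control (-1.57 ± 0.13, edgeR adjusted p = 3.75e-14). In THP1 it had 6 and 4 counts in the controls and 8 and 2 after knockdown, too few to be tested in that line. Its level there was 0.026 ± 0.009 RPKM (SD, n = 2) in the controls, against 1.57 ± 0.08 RPKM (SD, n = 2) in control Molm13, the 2 tables being normalised separately. A call of a difference between the lines (1.67 ± 0.70) rested on these few THP1 counts and was lost in 10 of the 14 alternatives tried, down to 0.39 without THP1 knockdown replicate 1. ELOVL5, the elongase of polyunsaturated chains, had ample counts and fell by 17.6% in Molm13 (-0.28 ± 0.03), with no call in THP1 (-0.08 ± 0.03) except in 4 alternatives, where it was called lower.

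The enzymes that supply and build the chain were lower in Molm13 than in its controls, with 1 exception. ACACA, acetyl-CoA carboxylase, the committed step, fell from 2518 and 2496 counts to 1602 and 1731, or 0.665 of control (-0.59 ± 0.04, edgeR adjusted p = 1.5e-17). This value is at the 1.5-fold limit and dropped below it with scaling by library size alone (-0.58), with upper-quartile scaling (-0.54), and without control replicate 2 (-0.56) or knockdown replicate 2 (-0.54). In THP1 it fell from 4664 and 4949 counts to 3859 and 3924, or by 13.6% (-0.21 ± 0.04). ACLY, ATP citrate lyase, fell by 23.6% in Molm13 (-0.39 ± 0.03) with no call in THP1 (-0.05 ± 0.03; called lower in 1 alternative), and FASN, fatty acid synthase, fell by 23.4% in Molm13 (-0.38 ± 0.03) and 28.6% in THP1 (-0.49 ± 0.04).

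The exception was ACSS2, which makes acetyl-CoA from acetate. Its counts rose from 286 and 287 to 567 and 579 in Molm13, or 2.00 times control (1.00 ± 0.08, edgeR adjusted p = 2.64e-15). In THP1 they rose from 933 and 990 to 1068 and 1054, or by 17.8% (0.24 ± 0.06). ACSS2 and NPC1 were the members that rose in both lines.

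Of the 9 fatty acid enzymes, 2 rose and 7 fell in Molm13 by the adjusted p, with a median of -0.39, against the same 33.4% and 33.5% of all genes. In THP1, 1 rose and 5 fell of 8 tested, with a median of -0.35, against 19.0% and 18.6%. The median was thus below 0 in both lines for the fatty acid arm, and above 0 in Molm13 and below 0 in THP1 for the sterol arm.

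MYLIP, the ubiquitin ligase that removes lipoprotein receptors and a known LXR target, showed the largest rise of any member. In Molm13 its counts went from 2206 and 2239 to 5740 and 6654, or 2.79 times control (1.48 ± 0.03, edgeR adjusted p = 2.98e-35). In THP1 they went from 554 and 570 to 350 and 319, a fall to 0.635 of control (-0.65 ± 0.08, edgeR adjusted p = 2.16e-07). The groups did not overlap in either line, and the difference was -2.12 ± 0.08 (edgeR interaction term, adjusted p = 6.59e-41).

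ABCA1, the cholesterol efflux pump, rose in Molm13 from 140 and 141 counts to 233 and 267, or 1.78 times control (0.83 ± 0.11, edgeR adjusted p = 6.18e-09). Its level in control Molm13 was low, at 0.619 ± 0.022 RPKM (SD, n = 2). Only the knockdown libraries there passed the RPKM limit of 1 that a DEG needed. In THP1 ABCA1 fell from 702 and 756 counts to 548 and 574, or by 17.8% (-0.28 ± 0.07). The other efflux pump, ABCG1, had 3 and 2 counts in control and 2 and 2 in knockdown Molm13 libraries, and 6 and 6 against 7 and 4 in THP1, which was too few to test. CH25H, the enzyme that makes an oxysterol, had 0 counts in all 8 libraries, which allows at most about 3 counts per library.

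NPC1, which exports cholesterol from lysosomes, rose in both lines. Its counts went from 613 and 551 to 742 and 854 in Molm13, a rise of 37.1% (0.46 ± 0.06). In THP1 they went from 882 and 986 to 1312 and 1363, or 1.53 times control (0.61 ± 0.06, edgeR adjusted p = 6.31e-10), and this single upregulated DEG of THP1 dropped under the 1.5-fold limit without knockdown replicate 2 (0.57). Exons on the opposite strand cover 5.98% of its exonic bases.

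The difference between the lines was tested directly as an interaction in 1 edgeR quasi-likelihood fit of all 8 libraries, over 19288 genes. Each line came in its own count table, so a difference between lines cannot be told apart from one between tables. By an adjusted p under 0.05, the log2 fold change was higher in THP1 than in Molm13 for 5 of the 36 tested members and lower for 26, or 13.9% and 72.2%, against 22.8% and 19.4% of all genes tested. The median difference was -0.57 for the members and 0.029 for all genes. The 5 higher members were SCAP, ACLY, ACACA, ELOVL5 and ELOVL6. PMVK, NSDHL, EBP, FASN and NPC1 were not called, but FASN was called lower in 7 of the 14 alternatives (to -0.19 without THP1 knockdown replicate 2) and NSDHL in 6 (to -0.36 without Molm13 control replicate 2). All 15 called sterol enzymes were lower. Of the fatty acid enzymes 4 were called higher and 4 lower, a tally that counts ELOVL6 as higher on its few THP1 counts and leaves FASN out.

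**Figure D4:**
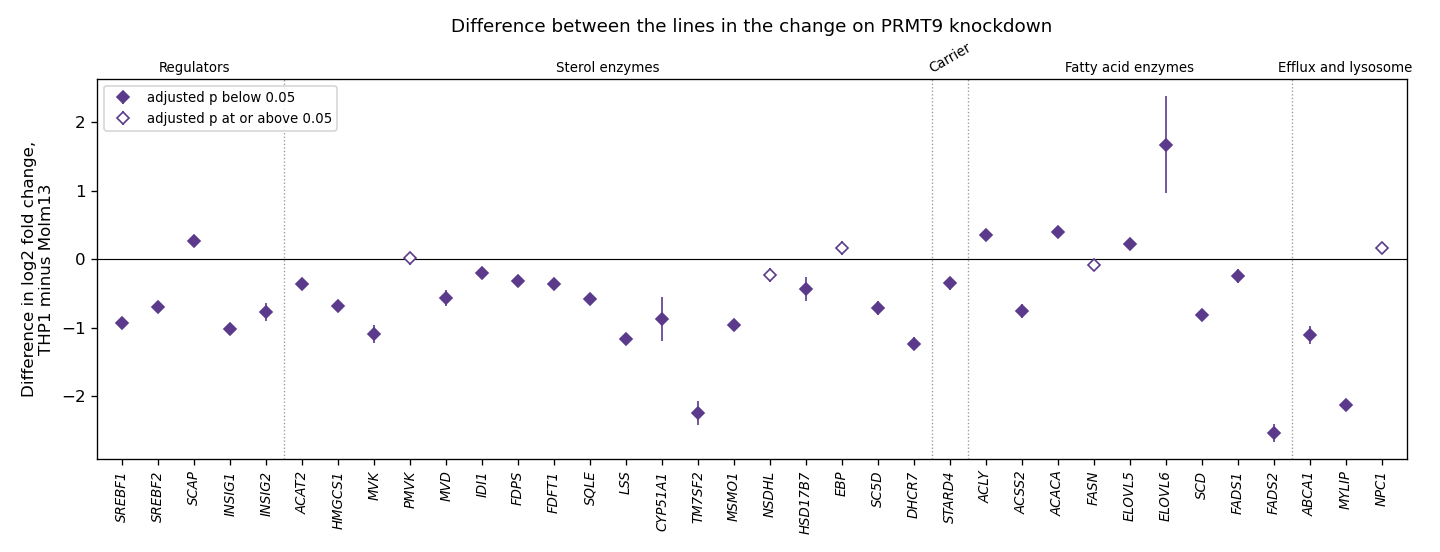
Difference in log2 fold change between the lines (THP1 minus Molm13) for the 36 tested members by role, with standard errors as bars and open symbols for an adjusted p at or above 0.05. FADS2, TM7SF2 and MYLIP lie below -2, and ELOVL6, with few THP1 counts, has the widest error bar.

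Other sets of genes, listed with their move in Molm13 already known, changed with the knockdown in the same libraries. Of all genes tested, 11.4% were upregulated DEGs in Molm13. In THP1, 3.83% were upregulated and 2.39% downregulated DEGs. Hypoxia-responsive genes (12 listed) summed to 1261 and 1266 CPM in control Molm13 libraries and 2764 and 2776 CPM after knockdown, with 10 of 11 tested upregulated DEGs and a median of 1.02. In THP1 they summed to 1251 and 1290 CPM against 1376 and 1387 CPM, with 2 of 9 tested upregulated DEGs, 1 downregulated and a median of -0.15. LDHA weighs heavily in the THP1 sums, with a mean of 807 CPM in control and 905 CPM in knockdown libraries. The summed level of 10 listed monocyte and macrophage genes was higher after knockdown in both lines, from 696 and 697 to 1198 and 1214 CPM in Molm13 (5 of 6 tested upregulated DEGs) and from 1986 and 2003 to 3241 and 3388 CPM in THP1 (6 of 9 tested upregulated DEGs). Most of these sums is LYZ, with control and knockdown means of 633 and 1002 CPM in Molm13, and 1884 and 3078 CPM in THP1. FCGR1A of that list went the other way in Molm13 (-0.44 ± 0.11, edgeR adjusted p = 0.00046) and was not called in THP1 (-0.01 ± 0.11). MRC1 of that list had at most 1 count in any Molm13 library and CD14 at most 8. The part of hypoxia or monocytic genes in the changes of sterol and fatty acid genes was not tested.

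A wider list of 46 lipid genes, taken by role from the same and neighbouring pathways, was counted in the same way. In Molm13, 2 of 45 tested were upregulated and 9 downregulated DEGs, or 4.44% and 20%, against 11.4% and 11.3% of all genes, with a median of -0.13. In THP1, 3 of 46 were up and 1 was down, or 6.52% and 2.17% against 3.83% and 2.39%, with a median of -0.03. By the adjusted p, 15 of the 46 fell in THP1 and 14 rose, or 32.6% and 30.4%, where 18.6% and 19.0% of all genes did; among the 35 members tested 24 fell and 2 rose.

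The counts by role that follow use edgeR's adjusted p, by which 33.4% of all genes rose and 33.5% fell in Molm13, and 19.0% and 18.6% in THP1. The 6 genes of SREBP processing and degradation fell in 5 cases in Molm13 and in 3 in THP1. Of the 5 genes listed under branches of the mevalonate route, 3 fell in Molm13. The nuclear envelope protein LBR led them (-0.83 ± 0.03) and is named here after its values were seen. It was counted in that list although its reaction lies within the sterol route. LBR is also a sterol reductase and is known to catalyse the same step as TM7SF2, which rose in the same libraries. The 2 genes differed widely in level in Molm13. Control and knockdown means were 399 and 225 CPM for LBR, and 4.65 and 12.9 CPM for TM7SF2. The rise of TM7SF2 was thus small in CPM beside the fall of LBR. In THP1, where TM7SF2 fell, LBR was not called (-0.03 ± 0.03). The 6 genes of LXR itself and its targets held no DEG in either line, with 2 rising and 1 falling in Molm13 and 3 rising and 1 falling in THP1.

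In the lysosome, LIPA, the acid lipase that frees cholesterol from its esters, was an upregulated DEG in both lines (0.91 ± 0.04 in Molm13 and 0.64 ± 0.05 in THP1). NPC2, which hands that cholesterol to NPC1, was an upregulated DEG in Molm13 (0.81 ± 0.09) and rose short of 1.5-fold in THP1 (0.27 ± 0.06). NPC1 itself rose in both lines, as given above. In THP1, ACSL1, which activates long-chain fatty acids, rose by 1.18 ± 0.04, and ME1, which supplies NADPH, rose by 0.76 ± 0.06 while falling by 0.97 on the log2 scale in Molm13. The lipoprotein receptor gene VLDLR was the downregulated DEG of this wider list in THP1 (-0.62 ± 0.03). Among the downregulated DEGs in Molm13, ME1, HACD3 (-0.94 ± 0.04) and ACSL3 (-0.83 ± 0.04) had the largest changes.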

How the data were processed

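Poly(A) RNA from 8 libraries (2 cell lines, control or PRMT9 hairpin, 2 libraries per group) was analysed from 1 deposited count table per line. The authors deposited raw read counts per gene, and the submitters' processing notes name TopHat2 2.0.8, HTSeq 0.11.2, edgeR 3.30.3 and the build hg38. Strand setting and annotation release are not given in the sources used here, so reads of overlapping genes could be lost or shared. Gene symbols, coordinates and exon lengths came from the Molm13 table. The spans of 36 of the 38 members were the same in GENCODE release 29, which was used for exon overlaps.

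Counts were analysed in R with edgeR 4.0.16 (filterByExpr, TMM normalisation, quasi-likelihood F-test, Benjamini-Hochberg adjustment over all genes tested). Standard errors (SE) are the size of a log2 fold change over the root of its F statistic. RPKM used TMM-scaled library sizes. A DEG needed an adjusted p under 0.05, a change over 1.5-fold and an RPKM above 1 in at least 1 library. The lines were compared by an interaction term in 1 fit of all libraries over the 57722 shared genes. Total counts per library, 18720950 to 27356870, bound the precision of low genes. On counts simulated from the Molm13 means over 16151 genes, 72.7% of 66 genes changed by 1.5-fold were recovered, and on the THP1 means over 15980 genes 70.8% of 65. For the difference between the lines, simulated over 18212 genes, it was 56.1% of 66. Recovered here means an adjusted p under 0.05 with the right sign, without the fold and RPKM limits.

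Counts in each library are given for members called as DEGs in either line, for the 5 regulators and for members too low to test, and the other members by fold change or range. Genes of the wider list are named where they were DEGs, at most 3 per line and direction with the largest change, and LBR was added after its values were seen. Members and lists were chosen with earlier results of these data known. Alternatives were other scalings (RLE, library size alone, upper quartile), no filter, DESeq2 1.42.0, a replicate block, 1 fit of all libraries, other limits, and each library left out in turn. No 2 libraries of a group agreed within sampling noise (mean chi-square per gene 1.35 to 2.17).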

Additional observations from a re-analysis of the deposited data

Results flagged for a closer look

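The effect of the knockdown differed between the 2 lines, by the interaction term in edgeR's quasi-likelihood fit of all 8 libraries (adjusted p under 0.05 over all genes tested), for 31 of the 36 members tested. Of all 19288 genes tested, 22.8% had a higher and 19.4% a lower log2 fold change in THP1 by that adjusted p. Values are the log2 fold change in THP1 minus that in Molm13, and line and count table cannot be told apart. Among the regulators the difference was -1.01 for INSIG1, -0.93 for SREBF1, -0.77 for INSIG2, -0.70 for SREBF2 and 0.26 for SCAP. In the early sterol route it was -1.09 for MVK, -0.69 for HMGCS1, -0.56 for MVD, -0.35 for ACAT2 and -0.21 for IDI1. From FDPS onward it was -0.32 for FDPS, -0.36 for FDFT1, -0.58 for SQLE, -1.17 for LSS, -0.87 for CYP51A1, -2.24 for TM7SF2, -0.96 for MSMO1, -0.43 for HSD17B7, -0.71 for SC5D and -1.23 for DHCR7, and it was -0.35 for the carrier STARD4. Among the fatty acid enzymes it was -2.53 for FADS2, -0.81 for SCD, -0.75 for ACSS2, -0.25 for FADS1, 0.22 for ELOVL5, 0.35 for ACLY, 0.39 for ACACA and 1.67 for ELOVL6. Among the efflux genes it was -2.12 for MYLIP and -1.10 for ABCA1. The differences of IDI1, CYP51A1, HSD17B7, ELOVL6 and FADS1 lost their call under at least 1 alternative.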

How the results depend on the processing

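The counts of members called under scaling by RLE, library size alone or upper quartile, without a filter, in DESeq2, in 1 fit of all libraries and under the replicate block stayed within 1.5 times those reported. With the replicate block they were 7 up and 3 down in Molm13, 1 up and 11 down in THP1, and 5 higher and 26 lower for the difference. Same-numbered libraries did not deviate together (correlation over genes -0.087 in Molm13 and -0.015 in THP1). The labels do not say whether they shared a culture or a batch, and these correlations cannot show it. A fold limit of 2 left 3 members up in Molm13, and 0 up and 4 down in THP1 (the rise of NPC1 was 1.53-fold). The adjusted p alone gave 19 up and 13 down in Molm13 and 2 up and 24 down in THP1. A difference above 1.5-fold between the lines left 1 member higher and 17 lower. The median log2 fold change in Molm13 was 0.18 with upper-quartile scaling and 0.12 to 0.18 with 1 library left out, and in THP1 -0.38 with library size alone and -0.37 to -0.29 with 1 left out. Upregulated members in THP1 ranged from 0 to 1, the 0 coming without THP1 knockdown replicate 2. Signs turned for uncalled values near 0: PMVK in Molm13 with upper quartile (0.00098), NSDHL in Molm13 (-0.15 to 0.045) and INSIG2 in THP1 (-0.24 to 0.046) with 1 library left out, and the line difference of PMVK with RLE (-0.0089), library size alone (-0.029), upper quartile (-0.043), DESeq2 (-0.0087) and 1 library left out (-0.053 to 0.018). The cause was not tested. Calls were also gained: in THP1 for ELOVL5 under 4 alternatives, SCAP and HSD17B7 under 3 each and ACLY under 1, in Molm13 for MVD under 2, and for the line difference of FASN under 7 and NSDHL under 6. ELOVL6 and ABCG1, with counts under about 10 in THP1, were too low to test in that line, and with 2 libraries per group the spread itself is poorly known.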
